A study of Oryza sativa with 200 samples.

Results

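The genes described here are 10 heat shock loci of rice among 37849 genes counted. They were chosen by their identifiers, as genes for the chaperones HSP101, HSP90 and HSP70, for small heat shock proteins and for HsfA2 transcription factors. They are the HSP101 gene (Os05g0519700), the HSP90 gene HSP81-1 (Os08g0500700), 1 HSP70 gene (Os01g0840100), the small heat shock protein genes HSP16.9A (Os01g0136100), HSP16.9B (Os01g0136200), HSP17.4 (Os03g0266900), HSP18.1 (Os03g0267000) and HSP26.7 (Os03g0245800), and the factor genes HSFA2A (Os03g0745000) and HSFA2C (Os10g0419300). In each identifier the digits after Os give the chromosome. RNA came from leaves of 100 lines of JAM2, an inbred population intercrossed from the rice varieties Akidawara, Iwaidawara, Tachiharuka and Toyomeki. The 2022 group held generation F5, sampled on 1 July, and the 2023 group generation F6 of the same lines, sampled on 29 June. In both groups each line grew as 33 plants in 1 paddy plot without replicate plots, under the same chemical fertilizer with 56 kg of nitrogen per ha. One leaf per line was frozen between 9:00 and 11:00, at 6 weeks after transplanting, and gave 1 library. Each year is therefore 1 season, 1 day and 1 generation, which cannot be told apart, and the p-values below measure the spread between lines.

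Heat shock proteins are chaperones that keep other proteins folded, and plants make more of them when leaves warm. HSP101 pulls proteins out of aggregates, HSP70 and HSP90 refold and mature client proteins, and small heat shock proteins hold unfolding proteins until the others act. Class A2 heat shock factors are transcription factors that bind the promoters of these genes and, as shown in tomato and Arabidopsis, keep them active during heat.

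Library totals ran from 3254834 to 37774023 counts in 2022 (median 7768777) and from 3729294 to 16881699 in 2023 (median 11272411). Levels are given as counts per 1000000 counts (CPM) on library sizes scaled by TMM, a method that centres most genes on no change. Over all libraries 6 of the 10 genes averaged 1 CPM or more and 4 lay under it. The 4 low genes were HSP16.9A, HSP16.9B, HSP26.7 and HSFA2A. No length of a transcript was used, so levels are compared within a gene and not between genes. The leaf label was not checked against leaf markers, because the names of those loci could not be matched. A root marker, the silicon transporter gene LSI1, had a median of 15.8 CPM in 2022 and 20.4 CPM in 2023. A panicle marker, OsMADS1, had medians of 1.23 and 1.60 CPM, with 14 and 8 lines at 0 and highest levels of 27.6 and 30.9 CPM. The part of both markers in the results below was not tested.

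The first comparison set the leaves of 2022 against those of 2023. Heat shock transcripts were lower in 2023. Of the 10 genes 5 passed the filter on low counts in each year alone, and each of these passed the test in that direction. The difference was 3.11-fold for the small heat shock protein gene HSP17.4, 2.60-fold for HSP101, 2.07-fold for HSP70, 1.61-fold for HSP81-1 and 1.45-fold for HSFA2C. Of the 16484 genes passing the filter in each year alone 38.7% were lower in 2023 and 34.6% higher, so a lower level by itself was common. A change of at least 2-fold downwards was measured for 0.655% of those genes (108) and for 3 of the 5 heat shock genes. The median log2 change was −1.05 over the 5 genes and −0.01 over those 16484. Scaled by total counts instead of TMM, the calls over all 18674 genes split into 3963 higher and 9865 lower in place of 6399 and 6899, their median moved from −0.01 to −0.12, and the 5 genes still passed as lower.

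HSP101, the disaggregase, ranged from 7.36 to 29.7 CPM over the lines in 2022, with a median of 15.9 CPM. In 2023 it ranged from 2.15 to 15.8 CPM, with a median of 5.89 CPM. It was higher in 2022 in 99 of 100 lines, although the groups overlapped, since 28 lines of 2023 reached the lowest level of 2022. On the log2 scale the change was −1.38 with an SE of 0.0692. By the quasi-likelihood test of edgeR, with Benjamini-Hochberg (BH) adjustment over 18674 genes, the adjusted p was 2.21e-47.

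HSP81-1, a cytosolic HSP90, had a lowest level of 311, a median of 442 and a highest level of 628 CPM in 2022. The corresponding levels in 2023 were 187, 258 and 607 CPM. The bulk of the lines separated, with 18 lines of 2023 at or above the lowest level of 2022, but 1 line of 2023 lay nearly as high as any line of 2022. Its log2 change was −0.68 (SE 0.0417, adjusted p = 3.02e-37), and 93 of 100 lines were higher in 2022. HSP70 ranged from 79.0 to 252.3 CPM in 2022 (median 138) and from 40.4 to 141 CPM in 2023 (median 64.1). It was higher in 2022 in 97 lines, with a log2 change of −1.05 (SE 0.0531, adjusted p = 7.53e-47).

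The small heat shock protein genes HSP17.4 and HSP18.1 are neighbours on chromosome 3. HSP17.4 had levels of 3.91 to 23.7 CPM in 2022 (median 12.7) and 1.14 to 10.9 CPM in 2023 (median 3.91). The median line of 2023 thus stood at the lowest line of 2022, and 98 lines were higher in 2022 (log2 change −1.64, SE 0.0752, adjusted p = 2.87e-52). HSP18.1 was low throughout, from 0.515 to 5.91 CPM in 2022 (median 2.89) and from 0 to 2.58 CPM in 2023 (median 0.825), with 2 lines of 2023 at 0. It was higher in 2022 in 97 lines, and 74 lines of 2023 reached the lowest level of 2022. HSP18.1 passed the low-count filter through its 2022 libraries and not within 2023 alone, so its log2 change of −1.73 (SE 0.0994) is given as a description, with no test. Ranked from the most lowered of the 18674 genes, HSP17.4 was at place 27, HSP101 at 53, HSP70 at 134, HSP81-1 at 551 and HSFA2C at 1017.

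HSFA2C, an A2 factor, changed least of the 5 genes by fold. It ran from 21.8 to 56.8 CPM in 2022 (median 37.1) and from 12.4 to 50.5 CPM in 2023 (median 24.9). The groups overlapped over most of their range, with 70 lines of 2023 at or above the lowest level of 2022, and 90 of 100 lines were higher in 2022. Its change was −0.53 on the log2 scale (SE 0.0458, adjusted p = 4.22e-23).

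**Figure D1:**
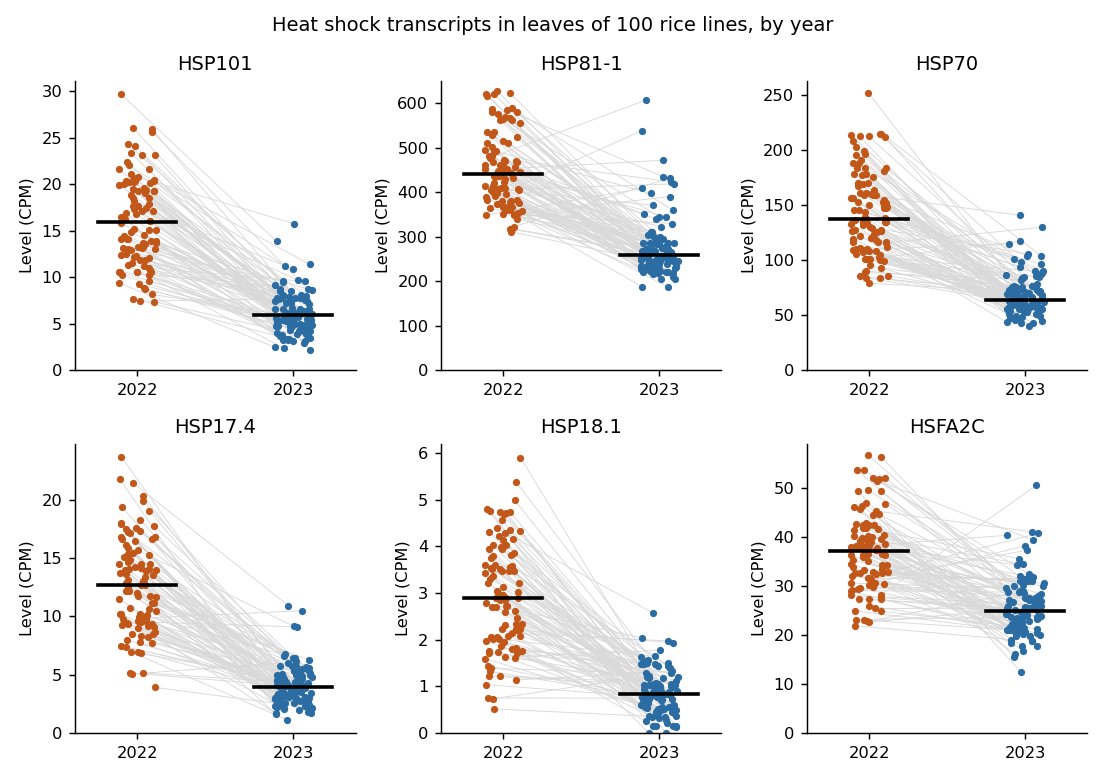
Level in CPM of the 6 heat shock genes averaging 1 CPM or more, with 1 point per line and year, grey lines joining the same line and black bars at the medians. The median of 2023 lies below that of 2022 for each gene, and the clouds overlap, with 18 lines of 2023 reaching the lowest level of 2022 for HSP81-1 and 74 for HSP18.1.

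The other 4 genes were too low for the filter and were tested only when no filter was applied, over 34142 genes, of which 23.7% were lower and 26.3% higher in 2023. HSP16.9A and HSP16.9B lie beside each other and are near-identical copies, so their split is uncertain where reads matching 1 place only were counted. HSP16.9A ranged from 0 to 1.56 CPM in 2022 (median 0.349, 12 lines at 0) and from 0 to 0.766 CPM in 2023 (median 0.100, 38 lines at 0). HSP16.9B ranged from 0 to 3.00 CPM in 2022 (median 0.50, 5 lines at 0) and from 0 to 0.970 CPM in 2023 (median 0.254, 12 lines at 0). Without the filter the log2 changes were −1.34 (SE 0.201, adjusted p = 1.54e-09 by edgeR) for HSP16.9A and −0.90 (SE 0.151, adjusted p = 5.10e-08) for HSP16.9B.

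HSP26.7, the small heat shock protein of the plastid, was close to 0. It was at 0 in 67 lines of 2022 and in 94 lines of 2023, and all libraries of a year summed to 77 and 7 counts. HSFA2A was at 0 in 20 lines of 2022 and 64 lines of 2023, with medians of 0.285 and 0 CPM and highest levels of 2.41 and 0.426 CPM. Both were lower in 2023 without the filter, with log2 changes of −2.09 (SE 0.261, adjusted p = 8.19e-13 by edgeR) for HSP26.7 and −2.44 (SE 0.241, adjusted p = 1.50e-18) for HSFA2A. At this depth a median library of 2023 held no read of either gene, so differences between single lines were not detectable.

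A wider list held 34 further heat shock genes whose names could be matched, of which 23 passed the filter in each year alone. Lower levels in 2023 passed for 15 of the 23 and higher levels for 6, while 2 passed in neither direction. Of all 16484 genes passing that filter 38.7% were lower and 34.6% higher. The median log2 change of the 23 was −0.34, and 4 were lower by at least 2-fold, beside 0.655% of all genes. The same shares of all genes stand beside the smaller groups that follow. Among 5 other small heat shock protein genes 3 were lower and 1 was higher. Of 9 further listed loci whose names could not be matched, 8 were tested, and 5 were lower and 2 higher. HSP24.1 (Os02g0758000) had the lowest change of the list (log2 change −1.997, SE 0.0985, adjusted p = 2.83e-48 by edgeR), from a mean of 67.8 to 17.0 CPM. HSP17.9A (Os03g0266300) followed at −1.98 (SE 0.0572), and in each of the 100 lines its level was lower in 2023.

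The other heat shock factors were mixed, with 8 of 14 lower and 5 higher in 2023, beside 38.7% and 34.6% of all genes. Calls in both directions were thus common among all genes too. HSFC1A (Os01g0625300) rose from a mean of 3.94 to 5.52 CPM (log2 change 0.47, SE 0.0635, adjusted p = 1.19e-11 by edgeR) and was higher in 2023 in 76 lines. HSFB1 (Os09g0456800) rose from 2.61 to 3.20 CPM (log2 change 0.29, SE 0.0861, adjusted p = 0.00145) and was higher in 2023 in 63 lines. Among the remaining A2 factors HSFA2B (log2 change −0.52) and HSFA2E (−0.21) were lower and HSFA2D (0.27) was higher. The 4 other chaperone genes with a matched name were lower, namely the HSP90 gene HSP81-3 (−0.56), the HSP101 relatives CLPB3 (−0.52) and CLPB2 (−0.38), and BIP1 (−0.45), the HSP70 of the endoplasmic reticulum.

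**Figure D2:**
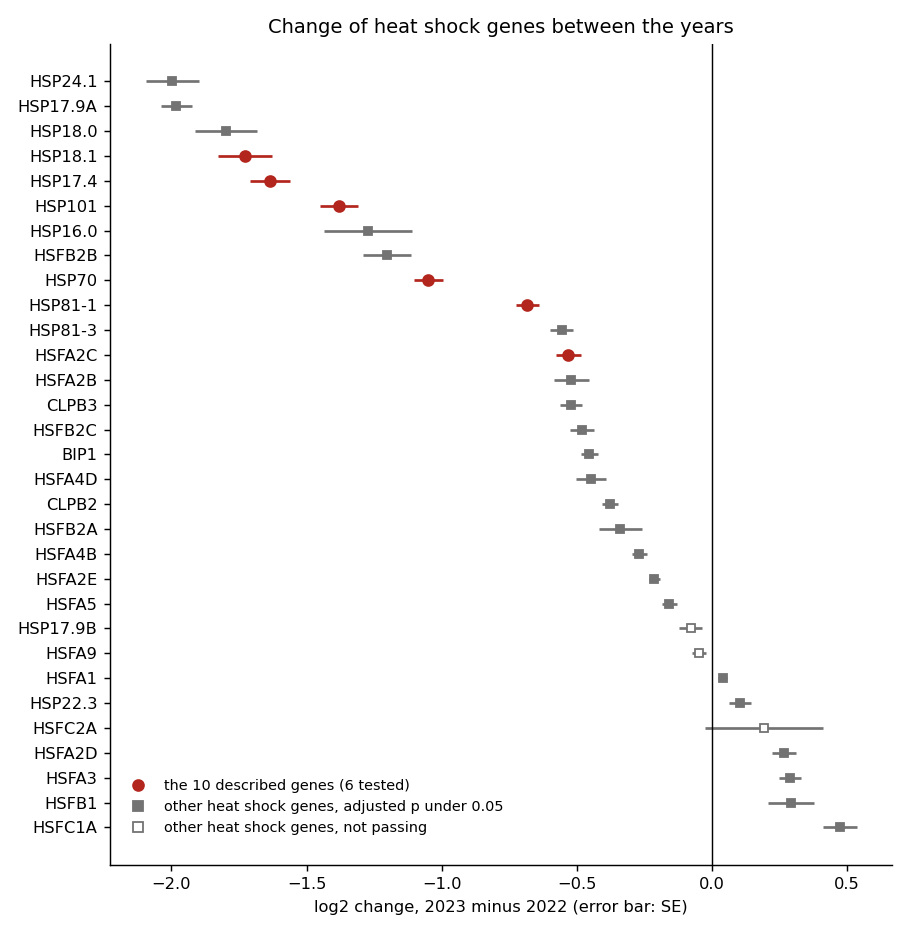
Log2 change from 2022 to 2023 with its SE for the 6 heat shock genes that passed the filter in either year (red) and the 25 such genes of the wider list (grey squares, open where the adjusted p was not under 0.05). HSP24.1 and HSP17.9A lie lowest at −1.997 and −1.98 and HSFC1A highest at 0.47.

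The second comparison followed the heat shock genes along the columns of each year's count table, which holds 100 columns. What the order of columns stands for is not given in the labels. Position was scaled so that a coefficient is the log2 change from the first to the last column used. Across all columns of 2022, 3 of 6 tested genes rose with position, beside 27.5% of all genes rising and 29.2% falling, so a trend along the columns was common among genes. HSFA2C rose by 0.37 (SE 0.0994, adjusted p = 0.00083 by edgeR), HSP70 by 0.33 (SE 0.125, adjusted p = 0.0176) and HSP18.1 by 0.50 (SE 0.189, adjusted p = 0.0181). HSP101 (0.27, adjusted p = 0.103), HSP17.4 (0.24, adjusted p = 0.182) and HSP81-1 (−0.08, adjusted p = 0.429) did not pass. Scaled by total counts HSP70 no longer passed (0.29, adjusted p = 0.0586 by edgeR). With the log2 library total as a covariate HSP18.1 no longer passed (0.44, adjusted p = 0.106), and HSP101 did (0.42, adjusted p = 0.0350).

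The 2022 profile was not a steady slope. The median of HSP101 over 10 columns was 12.4 CPM in columns 1 to 10, 18.1 CPM in columns 41 to 50, 12.4 CPM in columns 61 to 70 and 20.3 CPM in columns 81 to 90. HSP70 went from 105 CPM in columns 1 to 10 to 170 CPM in columns 41 to 50, 121 CPM in columns 61 to 70 and 162 CPM in columns 81 to 90. Both genes thus had a high stretch in the middle and another towards the end. Within columns 51 to 100 HSP101 rose by 0.78 (SE 0.213, adjusted p = 0.00684 by edgeR) and HSP70 by 0.46 (SE 0.168, adjusted p = 0.0499), 2 of 6 genes beside 8.33% of all genes rising and 9.91% falling. Within columns 1 to 50 none of the 6 genes passed, beside 3.5% of all genes rising and 4.3% falling, and the adjusted p was lowest for HSP70 (0.0977).

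The 2023 profile had a peak in columns 31 to 50. Over the whole table only HSP101 passed of the 5 genes tested, and it fell by 0.59 (SE 0.174, adjusted p = 0.0195 by edgeR), beside 5.87% of all genes falling and 3.34% rising. Split by 2022 depth, the coefficient of HSP101 was −0.83 over the 30 deepest lines (adjusted p = 0.807) and −0.65 over the other 70 (adjusted p = 0.155), and neither passed. The gene that passed was HSP81-1 in the 30 lines, where it rose (1.37, adjusted p = 0.0440), and HSP70 in the 70, where it fell (−0.61, adjusted p = 0.0284). Within columns 1 to 50, 4 of the 5 genes rose, beside 3.76% of all genes rising and 4% falling. HSP81-1 rose by 0.98 (SE 0.130, adjusted p = 5.17e-07), HSP17.4 by 1.12 (SE 0.287, adjusted p = 0.00759), HSFA2C by 0.79 (SE 0.15, adjusted p = 0.000237) and HSP70 by 0.65 (SE 0.173, adjusted p = 0.0113). HSP101 had a coefficient of −0.02 there (adjusted p = 0.982). Within columns 51 to 100 none of the 5 passed, where 0.712% of all genes rose and 0.625% fell, and HSP70 came nearest (−0.42, adjusted p = 0.0543).

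The peak is visible in the medians of 10 columns. HSP81-1 stood at 235.9, 228.3 and 247 CPM in the first 3 blocks, at 345.3 CPM in columns 31 to 40, at 393.6 CPM in columns 41 to 50 and between 246.1 and 304.6 CPM in the later blocks. HSP70 was at 57.1 CPM in columns 21 to 30, 83.2 CPM in columns 31 to 40, 88.8 CPM in columns 41 to 50 and 63.0 CPM in columns 61 to 70. HSP17.4 reached 5.96 CPM in columns 31 to 40, against 3.05 to 3.37 CPM before. HSFA2C reached 33.0 CPM in columns 41 to 50, against 21.0 to 23.6 CPM in columns 1 to 30. HSP101 had a median of 6.36 CPM in columns 21 to 30 and 7.46 CPM in columns 31 to 40. With linear and quadratic terms tested jointly all 5 genes passed in 2023, beside 11.6% of all genes. In 2022, 2 of 6 (HSFA2C and HSP18.1) passed, beside 54.3%. A gene can pass this joint test by its slope alone, so curvature by itself was not tested. HSP101 in 2023 and HSFA2C and HSP18.1 in 2022 had already passed with the linear term. The joint form was chosen after the profiles had been seen.

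Clock genes moved along the same columns. In 2022 the median of OsLHY, a clock gene that peaks around dawn, went from 371 CPM in columns 1 to 10 to 1513 CPM in columns 91 to 100. In 2023 OsLHY was lowest at 1419 and 1357 CPM in columns 31 to 40 and 41 to 50, where the heat shock genes peaked, and at 1712 to 2057 CPM in the other blocks apart from 1493 CPM in columns 51 to 60. OsGI, another clock gene, fell from 1472 to 1092 CPM along the 2022 table and was highest in 2023 at 1424 CPM in columns 31 to 40. The panicle marker OsMADS1 had a median of 0.421 CPM in columns 1 to 10 of 2022 and of 20.0 CPM in columns 91 to 100. In 2023 its medians in the same blocks were 12.6 and 0.0431 CPM. The part of these genes in the heat shock profiles was not tested. Of the wider list, 8 of 24 tested genes rose within columns 1 to 50 of 2023 and 0 fell, beside 3.76% and 4% of all genes. Within the same columns of 2022, 0 rose and 0 fell, beside 3.5% and 4.3%. Across all columns 0 rose and 1 fell in 2023, beside 3.34% and 5.87%. For 2022 the counts across all columns were 7 and 5, beside 27.5% and 29.2%.

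The slopes over the whole table were called different between the years for 3 of the 6 genes, among them HSP18.1. Of all genes 19% were called with a lower and 19.1% with a higher slope in 2023. HSP18.1 did not pass the filter on low counts within 2023 alone, so its difference is given as a description, with no test. The difference was −0.86 for HSP101 (SE 0.228, adjusted p = 0.00115 by edgeR) and −0.94 for HSP18.1 (SE 0.340). For HSP70 it was −0.49 (SE 0.182, adjusted p = 0.0226), which no longer passed when scaled by total counts (−0.45, adjusted p = 0.0597). It was −0.32 for HSFA2C (adjusted p = 0.0989), −0.25 for HSP17.4 (adjusted p = 0.485) and 0.11 for HSP81-1 (adjusted p = 0.599). With each line's number entered as a replicate block neither HSP101 (−1.16, adjusted p = 0.295) nor HSP70 (−0.73, adjusted p = 0.523) passed by the edgeR test. HSP18.1 was at 0.54 in that fit. Line and position are nearly tied in that fit, because the column positions of the lines ran in opposite order in the 2 tables (Pearson r −0.788 over 100 lines).

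**Figure D3:**
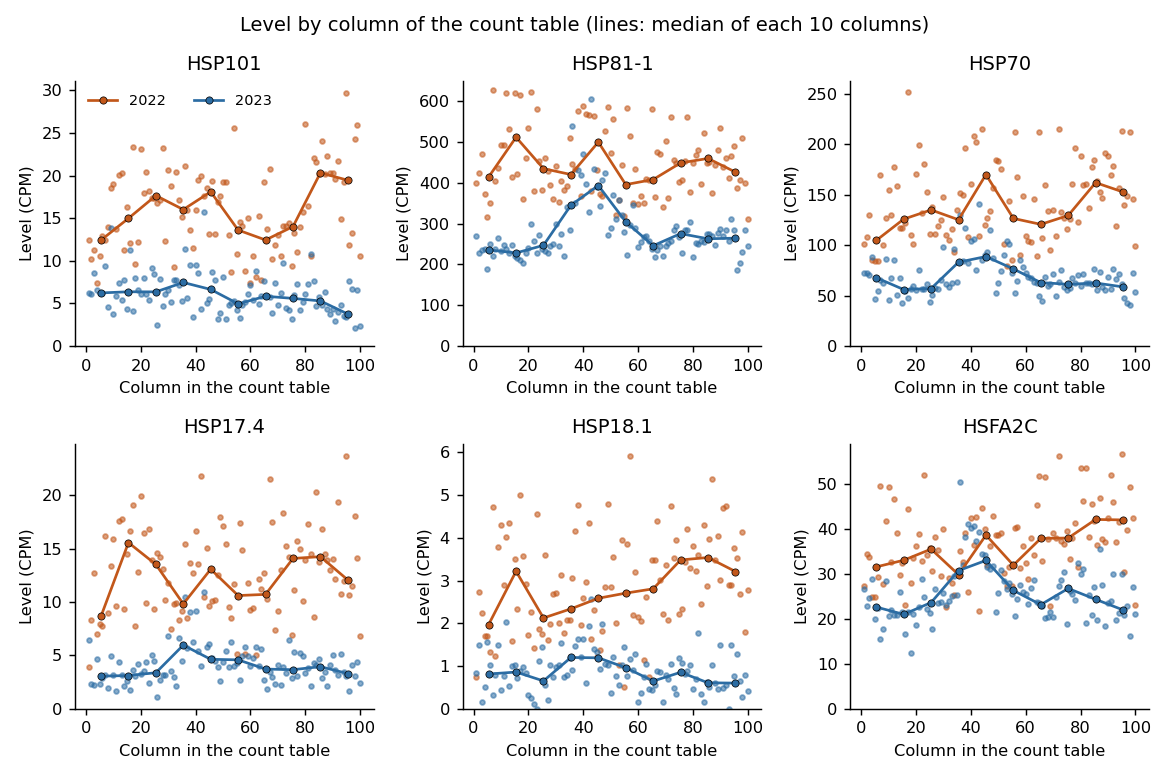
Level in CPM of the 6 genes against the column of the count table, with 1 point per line, and joined dots at the median of each 10 columns. In 2023 (blue) HSP81-1, HSP70 and HSFA2C peak in columns 41 to 50 at 393.6, 88.8 and 33.0 CPM, while in 2022 (orange) HSP101 is highest in columns 81 to 90 at 20.3 CPM.

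The third question was whether the genes varied together over lines within a year. In 2022 all 15 pairs among the 6 genes averaging 1 CPM or more were positively correlated, with a median Pearson r of 0.636 (0.392 to 0.804) over 100 lines. Of all 171208260 pairs of genes at that level 7.53% passed in this direction, and their median r was −0.00. In 2023 the median r of the 15 pairs was 0.347 (0.110 to 0.809) and 9 passed, beside 6.38% of all pairs. HSP18.1 averaged 2.93 CPM in 2022 and 0.876 CPM in 2023, so its 2023 pairs rest on a level under 1 CPM. Their r ran from 0.392 to 0.680 in 2022 and from 0.137 to 0.362 in 2023. The pairs of HSP101 ran from 0.110 to 0.347 in 2023. The lower median of 2023 is therefore not read as a drop shared by all 6 genes. All p-values of pairs are adjusted by BH over all pairs of genes.

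HSP81-1 and HSP70, which work on client proteins in turn, formed the closest pair in both years. Their r was 0.804 in 2022 (Spearman rho 0.820, 0.805 without the 2 farthest lines) and 0.809 in 2023 (rho 0.725, 0.766 without the 2 farthest lines), with permutation p = 1e-05 in each case, the smallest that 100000 permutations can give. HSP81-1 was also correlated with HSP17.4 at 0.713 in 2022 and 0.715 in 2023, and with HSFA2C at 0.634 and 0.751. HSP70 and HSFA2C had an r of 0.729 and 0.687. For the 4 genes HSP81-1, HSP70, HSP17.4 and HSFA2C, grouped after the values were seen, r was at least 0.611 for each pair in each year.

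HSP101 passed with few of the other genes in 2023. Its r with HSP81-1 was 0.433 in 2022 (rho 0.426, permutation p = 2e-05, adjusted p = 0.000205) and 0.110 in 2023 (rho −0.0653, permutation p = 0.275, adjusted p = 0.546). With HSP70 it was 0.636 in 2022 and 0.347 in 2023 (adjusted p = 0.00686), the 1 of its 5 pairs that passed in 2023. For that pair rho was 0.233 in 2023, and r was 0.246 without the 2 farthest lines. By rho 0 of the 5 pairs of HSP101 passed in 2023. Scaled by total counts 3 of its 5 pairs and 13 of all 15 passed in 2023, beside 18.1% of all pairs. The difference between the years was not tested. HSP18.1, with a median below 1 CPM in 2023, passed there with HSP81-1 (0.362) and HSP70 (0.313) and not with HSP17.4 (0.230), its neighbour, which had an r of 0.639 with it in 2022. All libraries together held 921 counts of HSP18.1 in 2023 and 3733 in 2022, and the part of counting error in its r was not tested.

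With a linear and quadratic trend of column position removed the median r was 0.629 in 2022 and 0.319 in 2023, with 15 and 8 pairs passing. A single line weighed on the 2023 values. It had the highest level of all 100 lines in 2023 for HSP101, HSP81-1, HSP70, HSP17.4 and HSP18.1, and the fifth highest for HSFA2C. The HSP81-1 level of this line was 607 CPM, its HSP101 level 15.8 CPM and its HSP17.4 level 10.9 CPM, and it sat in column 43, inside the peak. Without that line the median r of 2023 was 0.288, 8 of 15 pairs passed, and the r of HSP101 with HSP81-1 was 0.00894. HSP70 and HSP18.1 then no longer passed (r 0.269, adjusted p = 0.0583). The year changes without it ran from −1.75 for HSP18.1 to −0.54 for HSFA2C, and those of the 5 tested genes still passed.

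The change of a line between the years is given for the same pairs. Over the lines the differences of log2 level between 2023 and 2022 had an r of 0.868 for HSP81-1 with HSP70 and of 0.340 for HSP101 with HSP18.1, the closest and the loosest of the 15 pairs. These values are a description and no further evidence, because the levels already correlated within each year enter the differences. No value over all gene pairs is given.

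**Figure D4:**
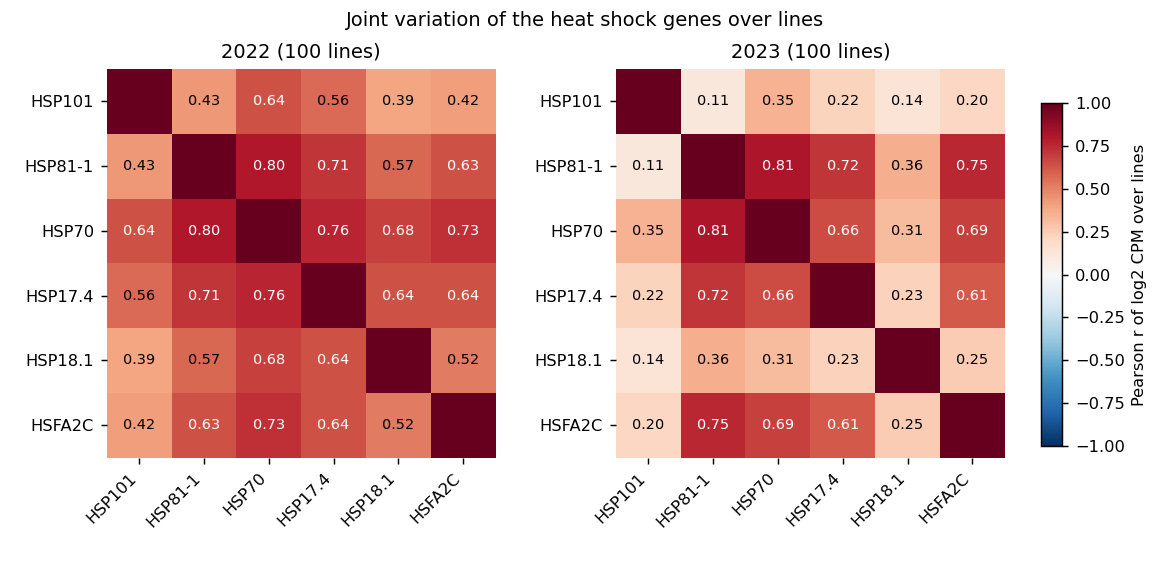
Pearson r of log2 CPM over 100 lines for each pair of the 6 genes in 2022 (left) and 2023 (right). HSP81-1 with HSP70 is at 0.80 and 0.81, while the row of HSP101 runs from 0.39 to 0.64 in 2022 and from 0.11 to 0.35 in 2023.

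The last question was whether a line kept its level from one year to the next. HSP101 did to a moderate degree, with a Pearson r of 0.348 between the years over 100 lines (rho 0.329, permutation p = 0.00032 and 0.001, adjusted p = 0.00287 by BH over 18505 genes). The r was 0.359 without the 2 lines farthest from the median and 0.356 with the position trend removed. The line with the highest HSP101 level of 2022 (29.7 CPM) had the next to highest of 2023 (13.9 CPM). The other 5 genes did not pass, at 0.108 for HSP17.4 (adjusted p = 0.511), 0.0301 for HSP81-1 (adjusted p = 0.880), 0.0290 for HSFA2C (adjusted p = 0.885), 0.0205 for HSP70 (adjusted p = 0.922) and −0.100 for HSP18.1 (adjusted p = 0.549).

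The count of 1 of 6 repeatable genes stood beside 22.3% of all genes, and the median r of the 6 was 0.0295 against 0.114 for all genes. With the position trend removed 26.2% of all genes passed and again HSP101 was the 1 gene of the 6. The line that led 5 genes in 2023 held place 32 of 100 for HSP81-1 in 2022 and place 33 for HSP70, but place 3 for HSP17.4. The line that was highest in 2022 for HSP101, HSP17.4 and HSFA2C held place 26 for HSP17.4 and place 27 for HSFA2C in 2023. As leaves are mixtures, a line with fewer cells of a type and a line with less of the RNA per cell cannot be told apart in these data.

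**Figure D5:**
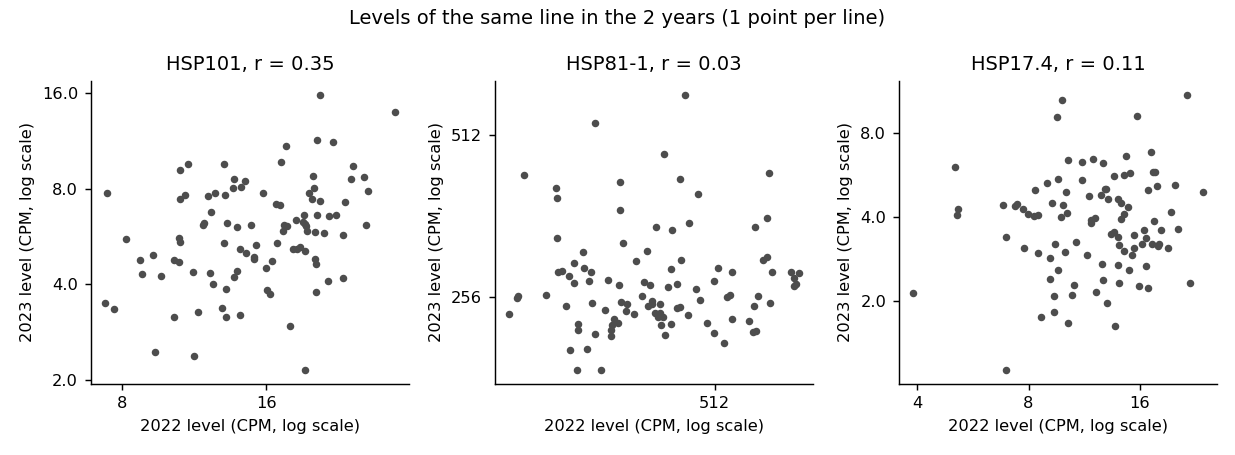
Level of the same line in 2022 (x axis) and 2023 (y axis), in CPM on log scales, for HSP101, HSP81-1 and HSP17.4, with 1 point per line. The points of HSP101 lean upwards (r 0.35) and those of HSP81-1 have no visible slope (r 0.03).

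Among 18499 other genes, the most similar to the 6 were sought by the smaller of the 2 within-year r with their mean standardised level over 100 lines. The closest were 2 loci without a matched name, Os05g0562300 (r 0.816 in 2022 and 0.833 in 2023) and Os02g0139100 (0.796 and 0.791). HSFB2B (Os08g0546800), a class B heat shock factor, was sixth (0.733 and 0.815), and the small heat shock protein gene HSP24.1 was ninth (0.713 and 0.755). Their log2 changes from 2022 to 2023 were −0.81, −0.68, −1.20 and −1.997. Of the 10 most similar genes 9 were lower in 2023 and 1 was higher, beside 6899 lower and 6399 higher of all 18674 genes. HSFB2B and HSP24.1 belong to the wider list of heat shock genes. So do Os05g0460000 at place 3 (log2 change −0.92) and Os03g0276500 at place 4 (0.10), both listed as HSP70 loci without a matched name. The 10 are therefore not all independent of the heat shock lists.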

How the data were processed

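The deposited tables, 1 per year, hold raw counts of unique exon reads per gene for 100 libraries each, per the labels. Per the submitters' processing notes, reads were placed on build IRGSP-1.0. Neither aligner nor counting tool is named (not given in the sources used here). All 200 columns matched a labelled sample. The 10 genes, the wider list and the tests were chosen with earlier results of these data known.

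Gene names were kept where the RefSeq table of assembly ASM3414082v1 lists the symbol on the chromosome of the locus in a compatible order. This held for 9 of the 10 genes, 34 of 43 in the wider list and 4 of 7 check genes. Os01g0840100 is named as an HSP70 gene by the selection alone.

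Tests were edgeR 4.0.16 quasi-likelihood F tests in R 4.3.3 (filterByExpr, TMM, BH over all genes, threshold 0.05). SE was the absolute log2 change over the square root of F. Correlations used log2 CPM (prior count 2) of genes averaging 1 CPM or more. Adjusted p-values came from the t distribution of r, and permutation p-values from 100000 permutations, two-sided. A line number marks the same line in both years, so the numbers pair the libraries. Alternatives included DESeq2 1.42.0. The tests were checked on simulated data. Genes named from the wider list were the 2 highest and 2 lowest changes among those called. Those most similar were named among the first 10 where a name was matched or the locus was in the wider list, or within the first 2. The changes of other listed genes were given by their groups after their values were seen.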

Additional observations from a re-analysis of the deposited data

Results flagged for a closer look

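The slope over the columns of the count table was flagged as differing between the years for 3 genes by the interaction test of edgeR. HSP18.1 is among them, but it did not pass the filter on low counts within 2023 alone, so its difference is a description. The log2 change from the first to the last column was lower in 2023 than in 2022 by −0.86 for HSP101, by −0.49 for HSP70 and by −0.94 for HSP18.1. In 2022 HSP70 and HSP18.1 rose along the table, and in 2023 HSP101 fell. Neither HSP101 nor HSP70 passed with the line number as a block, and the difference of HSP18.1 changed its sign there.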

How the results depend on the processing

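The year change of the 5 genes passing the filter in each year alone, a restriction chosen after seeing the data, kept its direction and passed under each of 13 alternatives, from −0.43 for HSFA2C to −1.84 for HSP17.4. All 10 genes passed as lower in 2023 with no filter, beside 23.7% of all genes lower and 26.3% higher. HSP18.1 fell under the filter in thinned libraries. The replicate block by line, with its dispersion trend taken from every 12th gene, changed no call of the year comparison.

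Column position depended on the columns and lines used. In 2022, 0 of 6 genes passed in the 30 lines with the deepest 2022 libraries, in the other 70 lines and in columns 1 to 50, and 1 passed when columns 51 to 100 were set against columns 1 to 50. Coefficients in the 30 lines, scaled to the whole table, ran from 0.43 (HSP81-1) to 2.22 (HSP101, adjusted p = 0.0532). HSP70 kept 0.33 in the other 70 (adjusted p = 0.196). Of all genes 56.8% passed, against 6.09%, 33.9% and 7.80% in those subsets, 18.2% in columns 51 to 100 and 34.7% with no filter. In 2023, 1 of 5 genes passed, against 0 in columns 51 to 100 and 5 with linear and quadratic terms tested jointly. In columns 1 to 50, 4 passed with or without the line that led 5 genes. Of all genes 9.21% passed, against 0.124% in the 30 lines, 1.27% in the other 70, 1.34% in columns 51 to 100 and 5.68% with no filter. HSP70 and HSP17.4 changed sign in columns 1 to 50 of 2023, from −0.16 to 0.65 and from −0.01 to 1.12 (0.58 and 1.02 without the leading line). With the replicate block 0 of 6 slope differences and 2.15% of all genes passed, against 3 and 38.1%. The 3 include HSP18.1, which lay below the filter within 2023 alone and reversed to 0.54.

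In the 30 lines 0 of 6 genes and 14.4% of all genes were repeatable, against 1 and 22.3%, and HSP101 had an r of 0.239 (adjusted p = 0.452, against a range of 0.00138 to 0.452 over its 7 alternatives). The share of all gene pairs passing in 2022 was 7.53%, against 3.46% with the trend removed, 11.8% with total counts as library size, 0.4995% in the 30 lines and 2.82% in the other 70. In 2023 it was 6.38%, against 18.1% with total counts, 0.777% in the 30 lines and 4.15% in the other 70. Subsets hold fewer lines, and the cause of the other shifts was not tested. Depth limits the 4 genes under 1 CPM.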
